A study of Mus musculus with 8 samples.

Results

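The aminoacyl-tRNA synthetases of mouse natural killer (NK) cells were followed in cells with and without CIS, both ex vivo and in vitro. Members were chosen by gene symbol alone, as every gene named by an amino acid letter followed by "ars" with or without a closing 2, together with Eprs, Farsa and Farsb. This gave 37 of the 27179 genes in the count matrix, 20 counted as cytosolic and 17, whose symbol ends in 2, as mitochondrial. All 37 passed the filter on low counts that left 13184 tested genes. NK cells, which kill infected or transformed cells, belong to the innate lymphocytes, and CIS is the product of Cish, an inhibitor of cytokine signalling of the SOCS family.

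All mice were C57BL/6, and CIS-/- cells are those of the Cish-null genotype. The cells came from spleen, bone marrow and blood and had been enriched with anti-CD49b (DX5) beads. There were 2 libraries in each of 4 groups, made up of both genotypes, wild-type and CIS-/- (CIS-null), in both states. The labels give no age, medium, cytokine or culture time, and do not say if replicates came from different mice or dishes, so p-values reflect only the spread among these samples, which could be technical.

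Aminoacyl-tRNA synthetases join each amino acid to its transfer RNA and so supply the substrates of protein synthesis. Cytosolic and mitochondrial ribosomes are served by separate enzymes for most amino acids, all encoded in the nucleus, whereas Gars and Kars each make both forms from a single gene. Eprs charges glutamate and proline transfer RNAs, Farsa and Farsb are the subunits of the phenylalanine enzyme, and mitochondria make glutaminyl-tRNA through an amidotransferase instead of a synthetase. Several cytosolic enzymes are held in a multi-synthetase complex by the scaffold proteins Aimp1, Aimp2 and Eef1e1. Genes of cytosolic synthetases are known targets of ATF4, the transcription factor of the amino acid response.

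Library totals lay between 21.5 and 28.1 M (1e6) counts. Cish was at 9.12 and 9.26 counts per 1e6 counts of the scaled library total (CPM) in wild-type and 1.29 and 2.64 CPM in CIS-null libraries ex vivo. In vitro it was at 202 and 220 CPM in wild-type and 17.2 and 21.2 CPM in CIS-null libraries. The NK marker Ncr1 was at 1690 to 1884 CPM ex vivo and 476.0 to 694.4 CPM in vitro. Itga2, the gene of CD49b, was at 235.4 to 276.7 CPM ex vivo and 7.128 to 21.24 CPM in vitro. Of 12 NK markers, 9 were called lower in culture in each genotype and 2, Gzma and Cd244, higher. Sex-linked transcripts also separated the groups: Xist was at 120 and 162 CPM in wild-type ex vivo and 89.7 and 131 CPM in CIS-null in vitro libraries, against at most 0.322 CPM in the other groups. The Y-linked gene Eif2s3y was at most 0.0385 CPM in CIS-null in vitro libraries and 21.7 CPM or more elsewhere, so sex and group cannot be told apart in any of these comparisons. T cell markers summed in vitro to 531.8 and 632.9 CPM without the mutation and to 1463 and 1507 CPM with it, and their part in the genotype results was not tested. In bulk RNA, fewer cells of a type and less RNA per cell cannot be told apart.

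Transcripts of most cytosolic enzymes were at higher levels than those of most mitochondrial ones. Per gene length, the median of the 20 cytosolic members was between 32.9 and 34.2 RPKM (CPM divided by gene length in kilobases, computed from the counts) in the ex vivo and wild-type in vitro libraries. It was 41.7 and 41.8 RPKM in CIS-null in vitro libraries, above all the others. The median of the mitochondrial members without Lars2 was between 4.54 and 4.81 RPKM ex vivo and between 5.79 and 6.73 RPKM in vitro. Kars, the lysine enzyme, had the highest cytosolic mean in wild-type cells, with 59.3 RPKM ex vivo and 91.5 RPKM in vitro. Qars (58.7 RPKM) led in CIS-null cells ex vivo and Dars (111 RPKM) in vitro. Cars, the cysteine enzyme, was the lowest cytosolic member in all 4 groups, at 3.92 to 4.89 RPKM, and it was below its mitochondrial counterpart Cars2 in each (ratio 0.478 to 0.523). Aars2, the mitochondrial alanine enzyme, was the lowest member of all, at 1.30 to 1.89 RPKM. Lars2, the mitochondrial leucine enzyme, was the highest mitochondrial member, at 90.6 and 94.8 RPKM ex vivo in the 2 genotypes and 1170 and 1850 RPKM in vitro. After Lars2 the highest was Iars2, the isoleucine enzyme, at 17.6 to 22.9 RPKM. Its cytosolic counterpart Iars was below it in each group (ratio 0.722 to 0.887). A transcript of Iars2 shares 2034 bases (3438 to 5471) with Rab3gap2, but the counted length of Iars2 is 3540 bases, shorter than that transcript. How far the shared stretch enters the Iars2 count was not tested.

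**Figure D1:**
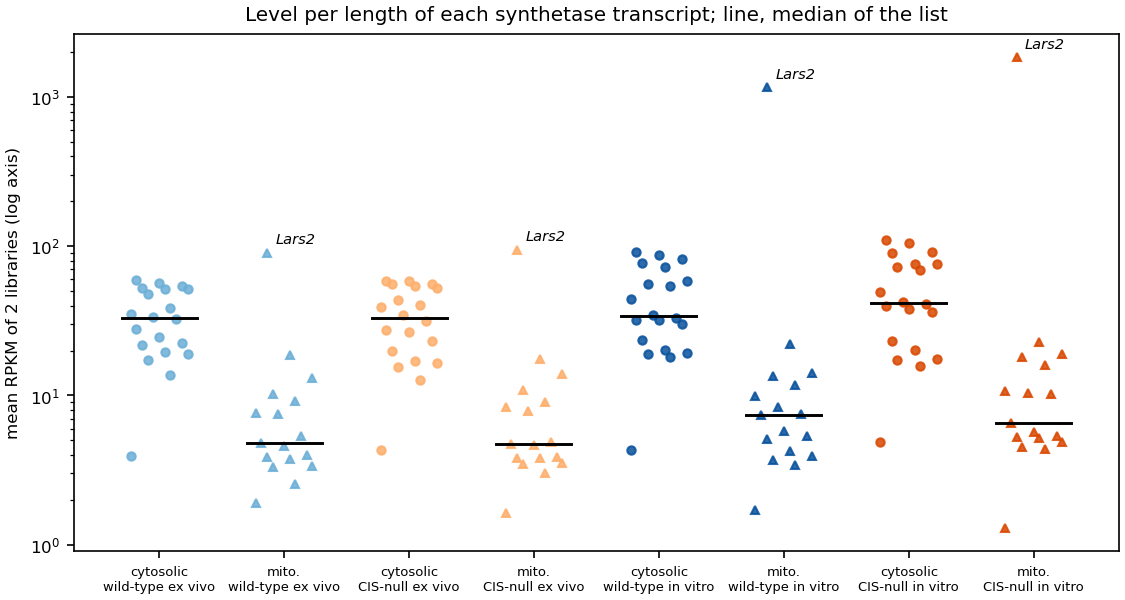
Mean RPKM of 2 libraries for each synthetase, on a log axis, in the 4 groups, with a line at each list's median and Lars2 named. Most cytosolic members lie above most mitochondrial ones, with Cars (3.92 to 4.89 RPKM) far below the other cytosolic members and Lars2 far above the other mitochondrial ones.

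In culture the synthetases rose more often than they fell. In wild-type cells 9 of 20 cytosolic members (45.0%) were higher in vitro than ex vivo and 0 were lower, and 8 of 17 mitochondrial members (47.1%) were higher and 1 lower (edgeR, Benjamini-Hochberg adjusted p under 0.05). Of all tested genes, 63.7% were called, 32.1% as higher and 31.6% as lower. In CIS-null cells 14 cytosolic members (70.0%) and 12 mitochondrial members (70.6%) were higher, with 0 and 1 lower, beside 72.4% of all genes called, 34.8% as higher and 37.5% as lower. The median log2 fold change was 0.25 for cytosolic and 0.26 for mitochondrial members in wild-type cells, and 0.48 and 0.41 in CIS-null cells, against 0 and -0.05 over all tested genes. All 10 proliferation markers examined were called higher in wild-type culture. Their summed levels were 365.0 to 467.6 CPM ex vivo. In vitro they were 1357 and 1408 CPM in wild-type and 1153 and 1209 CPM in CIS-null libraries. Between genotypes in vitro 1 of them, Mki67, was called lower in CIS-null cells (-2.15, edgeR adjusted p = 0.01) and 0 higher. The part of these markers in the culture and genotype results was not tested. Markers of other cells moved too. In wild-type culture all 10 B cell, 5 neutrophil and 7 erythroid and platelet markers were lower. So were 8 of 11 monocyte and macrophage markers, with 2 higher, and 9 of 12 NK markers. Their summed levels were 235.4 to 775.5 CPM ex vivo and at most 155.1 CPM in vitro for B cells, and 2682 to 3072 CPM and 1355 to 1892 CPM for monocytes and macrophages. Neutrophil markers were at most 0.04005 CPM in vitro (5.744 to 10.81 CPM ex vivo) and erythroid and platelet markers at most 0.7026 CPM (14.46 to 34.97 CPM). Basophil and mast cell markers summed to 92.44 to 166.2 CPM ex vivo and 437.0 to 992.5 CPM in vitro. Of these, Kit was at 83.12 to 124.7 CPM and 362.8 to 955.0 CPM. In wild-type culture 3 of 9 tested basophil and mast cell markers were higher and 4 lower. Of 12 T cell markers, 4 were higher and 5 lower in wild-type culture, and 7 and 2 in CIS-null culture. The part of these cells was not tested either. Taking out the trend of each library with gene length raised the wild-type cytosolic count to 14, beside 37% of all tested genes higher in that fit. Among the mitochondrial members Vars2, Wars2, Pars2 and Nars2 gained a call and Hars2 lost its call. The medians were then 0.35 for cytosolic and 0.44 for mitochondrial members, against 0.1 over all tested genes. Without ex vivo replicate 2 or in vitro replicate 1, fewer mitochondrial members were called in wild-type culture, and fewer of all tested genes too. The 13 mitochondrial calls in CIS-null culture fell to 8 under library totals or with the compared samples fitted alone, beside 9490 and 8527 genes called in those fits.

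Without a test, counting members whose in vitro libraries both lay above both ex vivo libraries gave 15 cytosolic and 14 mitochondrial members in wild-type cells, and 2 and 1 whose libraries lay below, beside 43.5% above and 44% below over all tested genes. In CIS-null cells 17 and 15 members lay above and 0 and 1 below, beside 41.4% and 44% of all tested genes. Between genotypes in vitro the CIS-null libraries lay above for 16 cytosolic and 10 mitochondrial members and below for 3 and 3, beside 33.7% and 35.1%. Ex vivo they lay above for 3 and 3 and below for 7 and 2, beside 22% and 18.4%.

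Members of the multi-synthetase complex were among the cytosolic enzymes with the largest changes. Rars, the arginine enzyme (chr11:35808381-35834528, GRCm38.p6), was at 70.4 and 68.4 CPM in wild-type and 72.9 and 74.2 CPM in CIS-null libraries ex vivo. In vitro it was at 118.5 and 114.1 CPM in wild-type and 158.0 and 164.2 CPM in CIS-null libraries. The 3 levels did not overlap: ex vivo lowest, wild-type in vitro between, CIS-null in vitro highest. The culture change of Rars was 0.75 in log2 (SE 0.0813, edgeR adjusted p = 9.18e-05) in wild-type cells and 1.13 (SE 0.0817, 6.61e-06) in CIS-null ones. Dars, the aspartate enzyme (chr1:128363707-128417416), showed the same order, with 118.8 to 136.9 CPM over the 4 ex vivo libraries, 204.3 and 208.3 CPM in wild-type and 251.2 and 308.2 CPM in CIS-null libraries in vitro. Its culture change was 0.77 (SE 0.111, edgeR adjusted p = 0.000418) in wild-type cells and 1.08 (SE 0.112, 4.32e-05) in CIS-null ones. Kars (chr8:111993439-112011354) was at 124.0 to 130.2 CPM ex vivo, 202.1 and 195.6 CPM in wild-type and 227.5 and 226.9 CPM in CIS-null libraries in vitro. All in vitro libraries were thus above all ex vivo ones, and the change of Kars was 0.63 and 0.84 in log2 (edgeR adjusted p = 0.000241 and 3.08e-05). Qars, the glutamine enzyme, was at 143.6 to 176.1 CPM ex vivo and 234.8 to 252.8 CPM in vitro, and the genotypes differed by 0.07 in log2 in vitro. Its culture changes were 0.61 and 0.64 (edgeR adjusted p = 0.00126 and 0.00074). Of the 8 complex members, 5 were called higher in wild-type culture (median log2 fold change 0.50), and of the 12 cytosolic members outside it, 4 (median 0.14). As shares these are 62.5% and 33.3%, the latter near the 32.1% of all tested genes. In CIS-null cells the counts were 6 (75.0%) and 8 (66.7%), with medians of 0.66 and 0.38, beside 34.8% of all tested genes.

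Outside the complex, Vars, the valine enzyme, was at 175.0 to 227.4 CPM ex vivo and 274.8 to 335.9 CPM in vitro. Its highest in vitro libraries were those of wild-type cells, and its culture change was 0.58 in wild-type cells and 0.67 in CIS-null ones (edgeR adjusted p = 0.00129 and 0.000445). Farsb, the beta subunit of the phenylalanine enzyme, was at 46.3 to 52.1 CPM ex vivo, 69.3 and 67.3 CPM in wild-type and 89.6 and 90.9 CPM in CIS-null libraries in vitro, changes of 0.51 and 0.88 (edgeR adjusted p = 0.00157 and 5.02e-05). Gars, Iars and Farsa completed the 9 calls in wild-type cells. The 11 cytosolic members without a call there had log2 fold changes of -0.12 (Yars) to 0.31 (Eprs). Eprs was at 0.61 with the length trend removed (edgeR adjusted p = 0.000305). In CIS-null cells the 6 without a call (Aars, Cars, Eprs, Lars, Wars and Yars) lay between -0.14 and 0.22.

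**Figure D2:**
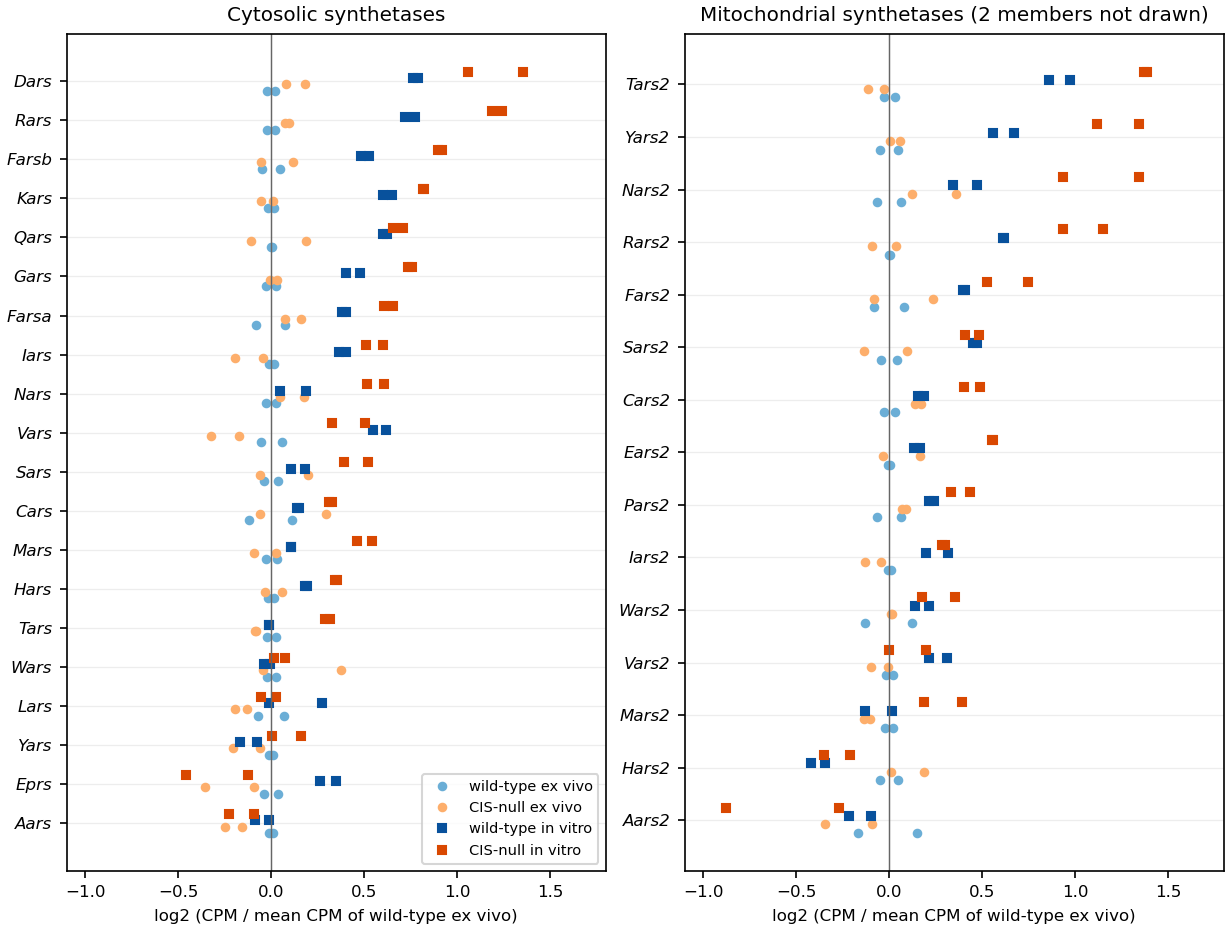
Each dot or square is the CPM of a synthetase in 1 library, as log2 of its ratio to the wild-type ex vivo mean of that gene, with 1 row per member, Lars2 and 1 other mitochondrial member not drawn. The in vitro squares stand to the right of the ex vivo dots for most members, and those of Hars2 stand to the left.

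Among the mitochondrial enzymes other than Lars2, Tars2, the threonine enzyme (chr3:95739974-95756365), changed most. It was at 16.4 to 18.1 CPM over the 4 ex vivo libraries, 34.8 and 32.3 CPM in wild-type and 46.0 and 46.4 CPM in CIS-null libraries in vitro. The groups did not overlap, and the culture change was 0.92 (SE 0.0943, edgeR adjusted p = 6.7e-05) in wild-type cells and 1.45 (4.03e-06) in CIS-null ones. The cytosolic partner Tars was at 86.6 and 89.7 CPM in wild-type libraries ex vivo and 87.3 and 87.5 CPM in vitro, a change of -0.01 (edgeR adjusted p = 0.904). The Tars to Tars2 ratio of RPKM was accordingly 8.36 ex vivo and 4.39 in vitro in wild-type cells, and 8.29 and 3.96 in CIS-null cells.

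Yars2, the mitochondrial tyrosine enzyme (chr16:16302965-16309640), was at 11.8 to 12.7 CPM ex vivo, 18.0 and 19.4 CPM in wild-type and 26.4 and 30.9 CPM in CIS-null libraries in vitro. Rars2, the arginine enzyme, was at 16.1 to 17.6 CPM ex vivo, 26.3 and 26.4 CPM in wild-type and 32.8 and 38.0 CPM in CIS-null libraries in vitro. Both were lowest ex vivo and highest in CIS-null in vitro libraries, and both had a culture change of 0.62 in wild-type cells (edgeR adjusted p = 0.00229 and 0.00135), against 1.21 and 1.07 in CIS-null cells.

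Hars2, the mitochondrial histidine enzyme, went against its list. It was at 38.4 to 45.2 CPM ex vivo and 29.7 to 34.4 CPM in vitro, with no overlap between the states, and the change was -0.38 in both genotypes (edgeR adjusted p = 0.0113 and 0.0099). The call of Hars2 was lost with the length trend removed (-0.26 and -0.18, edgeR adjusted p = 0.0569 and 0.145). It was also lost in wild-type cells without ex vivo replicate 2 or in vitro replicate 1, and in CIS-null cells without in vitro replicate 1, at edgeR adjusted p of 0.0914, 0.0555 and 0.0535. The mitochondrial members without a call lay between -0.16 and 0.41 in wild-type cells and between -0.33 and 0.25 in CIS-null ones.

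**Figure D3:**
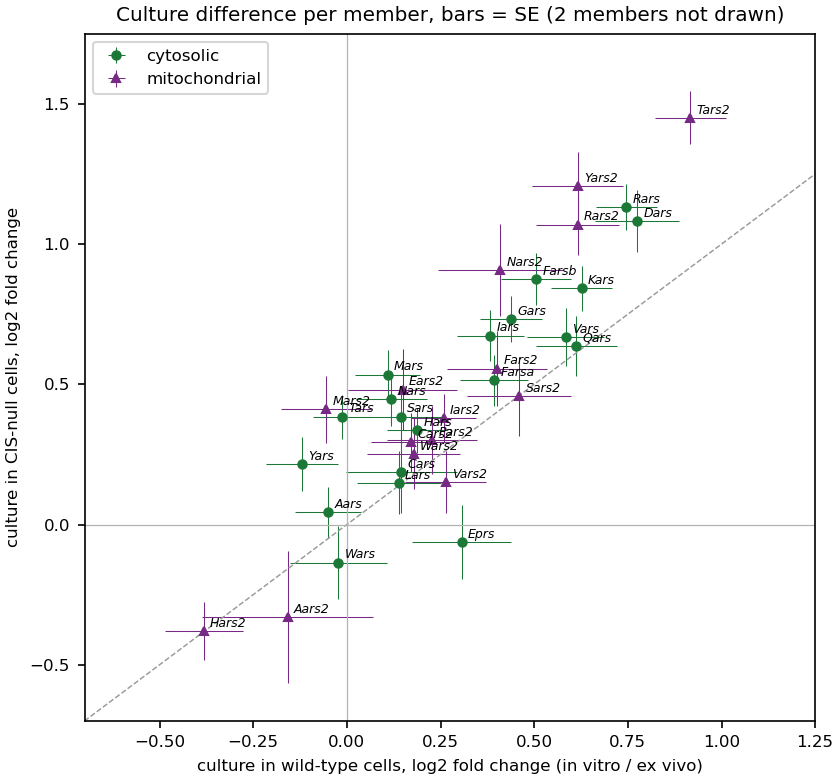
Log2 fold change of each synthetase between in vitro and ex vivo cells, wild-type on the horizontal and CIS-null on the vertical axis, with SE bars and a dashed line of equal change. Lars2 and 1 other mitochondrial member are not drawn, and most points lie above the line, with Tars2 (0.92 and 1.45) farthest to the upper right.

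Lars2 changed more than any other member. Its level was 342.8 and 360.4 CPM in wild-type and 334.3 and 401.9 CPM in CIS-null libraries ex vivo, and 4505 and 4544 CPM in wild-type and 6412 and 7935 CPM in CIS-null libraries in vitro. Every in vitro library was above every ex vivo one, and the change was 12.9-fold in wild-type (log2 3.69, SE 0.149, edgeR adjusted p = 5.38e-07) and 19.5-fold in CIS-null cells (log2 4.28, SE 0.153, 2.78e-07). Because of Lars2 the summed mitochondrial members rose from at most 694.7 CPM ex vivo to between 4871 and 8365 CPM in vitro. Without it the sums were 292.7 to 306.0 CPM and 364.5 to 429.7 CPM.

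The Lars2 counts are uncertain. The gene lies at chr9:123366927-123462675, and its reference transcript of 3894 bases has a stretch of 72 bases in the 3′ untranslated region that is 98.6% identical to another gene model, Gm15564. Precursor ribosomal RNA (Rn45s) was at 3507 and 1382 CPM in wild-type and 1901 and 1850 CPM in CIS-null libraries ex vivo. In vitro it was at 2984 and 5091 CPM in wild-type and 12258 and 13888 CPM in CIS-null libraries. In the CIS-null libraries both were higher in vitro than ex vivo, whereas the Rn45s levels of the wild-type libraries overlapped between the states. An unnamed entry of 82 bases, the most abundant one shorter than 100 bases and chosen after its values were seen, was at 309.5 to 434.6 CPM ex vivo and 2959 to 5383 CPM in vitro. The ratio of Lars2 to this entry was between 0.925 and 1.11 ex vivo and between 1.31 and 1.52 in vitro. Whether Lars2 reads come from either sequence was not tested.

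**Figure D4:**
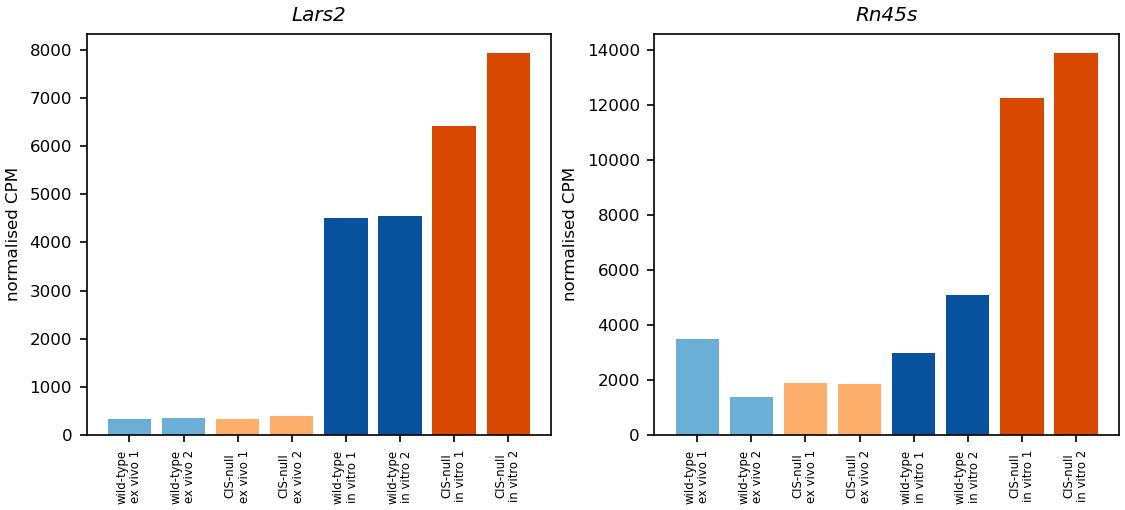
Bars give the normalised CPM of Lars2 and of Rn45s in each of the 8 libraries, on linear axes that start at 0. Lars2 separates ex vivo (334.3 to 401.9 CPM) from in vitro libraries (4505 to 7935 CPM), whereas the Rn45s levels of wild-type ex vivo and in vitro libraries overlap.

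Ex vivo, the loss of CIS was not accompanied by a called change in any synthetase. None of the 20 cytosolic and 17 mitochondrial members passed with edgeR (0 higher, 0 lower), nor with DESeq2 or limma-voom, beside 0.0607% of all tested genes called, 0.0303% as higher and 0.0303% as lower. At an unadjusted p under 0.05 the counts were 1 cytosolic member (lower) and 0 mitochondrial ones, beside 3.08% of all tested genes higher and 3.32% lower. That member was Vars, at 227.4 and 210.3 CPM in wild-type and 193.9 and 175.0 CPM in CIS-null libraries, which did not overlap (log2 fold change -0.25, SE 0.103, edgeR adjusted p = 0.766). Next by p came Aars (-0.20) and Eprs (-0.22). Aars, the alanine enzyme, was at 96.7 and 95.4 CPM in wild-type and 80.8 and 86.2 CPM in CIS-null libraries. All 37 changes lay between -0.25 and 0.24 in log2.

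In vitro, 7 of 20 cytosolic members (35.0%) were higher in CIS-null than in wild-type cells and 1 was lower, and of 17 mitochondrial members 5 (29.4%) were higher and 1 lower. Of all tested genes 25.6% were called, 11% as higher and 14.6% as lower (edgeR). The higher cytosolic members were Rars, Nars, Mars, Farsb, Dars, Tars and Gars, with log2 fold changes of 0.31 to 0.47, and the lower one was Eprs. The higher mitochondrial members were Yars2, Tars2, Lars2, Nars2 and Rars2, at 0.43 to 0.74 in log2, with 1 other member lower. The median was 0.20 for cytosolic and 0.24 for mitochondrial members, against 0 over all tested genes. These counts rest on single libraries. Leaving out wild-type in vitro replicate 1, its replicate 2 or CIS-null in vitro replicate 2 left fewer members called, and fewer of all tested genes too. The log2 fold change of Mars was then 0.43, 0.39 and 0.36, against 0.40 with all libraries. That of Lars2 was 0.70, 0.67 and 0.50, against 0.66. Under scaling by library totals the median of all genes shifted to -0.13. That fit had 4 cytosolic calls, 3 of them higher, beside 3517 genes called in all, 21.2% of them higher.

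Rars had the lowest p, with its CIS-null libraries (158.0 and 164.2 CPM) above the wild-type ones (118.5 and 114.1 CPM) by 0.47 in log2 (SE 0.0804, edgeR adjusted p = 0.00737). Its call was lost only without wild-type in vitro replicate 2 (adjusted p = 0.059 with edgeR). Nars, the asparagine enzyme, was at 155.2 and 140.7 CPM in wild-type and 194.7 and 207.8 CPM in CIS-null libraries (0.44, SE 0.0948, edgeR adjusted p = 0.0137). Mars, the methionine enzyme, was at 89.0 and 89.0 CPM in wild-type and 113.8 and 120.3 CPM in CIS-null libraries (0.40, SE 0.0858, edgeR adjusted p = 0.0144). Both were without overlap between genotypes, and neither passed in wild-type culture (0.12 and 0.11).

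Among the mitochondrial members, Yars2 differed by 0.62 (SE 0.118, edgeR adjusted p = 0.00984) and Tars2 by 0.46 (edgeR adjusted p = 0.0109), with libraries that did not overlap. Lars2 differed by 0.66 (SE 0.134, edgeR adjusted p = 0.0117). In the authors' log2 RPKM values Lars2 was at 10.31 and 10.16 in wild-type and 10.31 and 10.55 in CIS-null libraries, a difference of 0.20 (limma adjusted p = 0.301). After gene length was added back, the highest of those log2 values was 13.98 and the median 4.64 in all 8 libraries, so their distributions had been made alike.

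Eprs, named because it went against the other called cytosolic members, was lower in CIS-null cells. Eprs (chr1:185361417-185428360) was at 117.8 and 110.9 CPM in wild-type and 84.9 and 67.3 CPM in CIS-null libraries, a change of -0.59 (SE 0.132, edgeR adjusted p = 0.0161). With the length trend removed it was -0.32 (edgeR adjusted p = 0.0329). The call of Eprs was lost without wild-type in vitro replicate 1 or 2 or CIS-null in vitro replicate 2, and with a replicate block and the length trend removed together (highest edgeR adjusted p 0.103).

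Log2 fold changes between genotypes in vitro fell with gene length over all tested genes (Spearman rho -0.461 over 13184 genes) and over the 37 members (-0.407), a description across genes that share libraries. Median lengths were 2798 bases for cytosolic and 3077 bases for mitochondrial members, against 2682.5 bases for all tested genes. With the trend removed the medians were 0.26 and 0.23, and 9 cytosolic and 6 mitochondrial members were higher, with 1 and 0 lower, beside 11.6% higher and 10.5% lower of all tested genes in that fit.

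**Figure D5:**
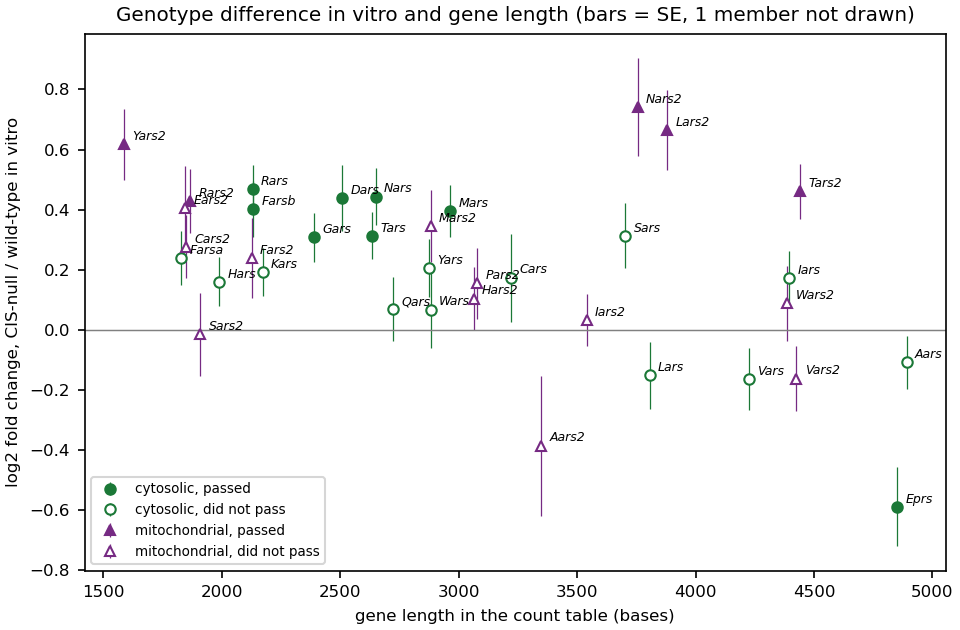
Log2 fold change between CIS-null and wild-type cells in vitro, with SE bars, against gene length in bases, 1 mitochondrial member not drawn, with filled symbols for called members. Longer members tend to have lower values (Spearman rho -0.407 over all 37), with Nars2, Lars2 and Tars2 high among the long ones.

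No difference between the genotypes in the culture change passed for a synthetase (edgeR, 0 of 37, beside 0.137% of all tested genes, 0.0531% as higher and 0.0834% as lower), although 8 cytosolic members higher and, among the mitochondrial, 5 higher and 1 lower had an unadjusted p under 0.05, beside 7.18% higher and 12.4% lower over all tested genes. DESeq2 called 1, Lars2. The lowest p values belonged to Tars2 (0.53, edgeR adjusted p = 0.114), Tars (0.40, 0.133) and Mars (0.43, 0.136). Both genotype comparisons enter this contrast, so it is no separate evidence.

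The medians of cytosolic and mitochondrial enzymes lay close together in each comparison. The cytosolic minus mitochondrial median difference was -0.01 between genotypes ex vivo, -0.04 between genotypes in vitro, -0.02 for culture in wild-type and 0.07 for culture in CIS-null cells. Between replicate libraries, the SD of the cytosolic minus mitochondrial median of log2 CPM was 0.0952. That is the spread of single libraries and not of a fold change. For the interaction, which combines all groups, the median difference was 0.11, and no spread was computed for it. Over the 18 cytosolic and mitochondrial pairs for 1 amino acid, the cytosolic enzyme changed further upward in 10 pairs in wild-type culture and in 8 pairs in CIS-null culture. The pairs are not all separate, as Eprs is paired with both Ears2 and Pars2, and Fars2 with both Farsa and Farsb. The widest gap was that of Lars and Lars2, with a Lars to Lars2 RPKM ratio of 0.192 in wild-type ex vivo and 0.0164 in wild-type in vitro cells.

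Genes that work with the synthetases were followed in lists, to be read against 32.1% of all tested genes higher and 31.6% lower in wild-type culture, 34.8% and 37.5% in CIS-null culture, and 11% and 14.6% between genotypes in vitro. All 3 complex scaffold genes were higher in wild-type culture: Aimp1 by 1.19, Aimp2 by 1.06 and Eef1e1 by 1.42. In CIS-null culture all 3 were higher again, by 1.33 to 2.26. In vitro Aimp2 was at 59.5 and 60.1 CPM in wild-type and 89.96 and 106.2 CPM in CIS-null libraries (0.71, edgeR adjusted p = 0.00612). Eef1e1 was at 49.5 and 55.3 CPM in wild-type and 100.5 and 120.7 CPM in CIS-null libraries (1.08, edgeR adjusted p = 0.00326). All 6 cytosolic elongation factors were higher in culture in both genotypes, and of these Eif5a was also higher in CIS-null cells in vitro (0.72, edgeR adjusted p = 0.0084). Of 13 mitochondrial amidotransferase and translation factor genes, 6 were higher in wild-type culture, such as Mrrf (1.14), which recycles ribosomes, and 1 was lower, the initiation factor Mtif3 (-0.42). In CIS-null culture 8 were higher and 2 lower. Of 8 other synthetase-like genes, 3 (37.5%, near the share of all genes) were higher in wild-type culture and Tarsl2, a threonyl-tRNA synthetase outside the naming rule, was lower (-1.70).

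The amino acid response list had 11 members. In wild-type culture 5 were higher and 1, Ddit3, was lower, beside 32.1% and 31.6% of all tested genes. Asns, asparagine synthetase, an enzyme that makes asparagine and not a tRNA enzyme, was at 0.138 to 0.379 CPM ex vivo, 21.9 and 14.0 CPM in wild-type and 43.2 and 58.3 CPM in CIS-null libraries in vitro. Atf4 was between 56.9 and 71.8 CPM in the ex vivo and wild-type in vitro libraries and at 96.6 and 105.2 CPM in CIS-null in vitro libraries. Between genotypes in vitro, 6 of the 11 were higher: Atf4 (0.70, edgeR adjusted p = 0.00569), Asns (1.50), Psat1 (0.71), Phgdh (0.56), Trib3 (1.66) and Chac1 (1.81). Gcn1l1 (-0.49) and Sesn2 (-0.42) were lower, and of all tested genes 11% were higher and 14.6% lower. None of the genes in these lists was called between genotypes ex vivo, nor in the interaction.

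Because ATF4 acts through a composite element, the promoters of the synthetases were searched on both strands for TGATGNAA, as RefSeq gives them on GRCm38.p6, from 250 bases before to 50 bases after the start. A promoter was at hand for 27 members. The element was in 5 of 13 cytosolic promoters (38.5%) and in 0 of 14 mitochondrial ones, against 3.97% of all 32851 promoters of that length. The 5 genes were Aars, Gars, Iars, Tars and Yars. The E-box CACGTG was in 4 cytosolic and 1 mitochondrial promoters (7.15% of all), and the core motif of NRF1 in 3 and 2 (4.60% of all). In the members' promoters 0 pairs of matches to different motifs shared a base, and a match is a description of letters only. A window of each gene is shown because it holds the motif that sets the 2 lists apart in this search, with the match in capitals and the strand that reads it.
Aars (chr8:111033840-111033869, minus strand): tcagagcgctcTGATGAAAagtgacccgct
Gars (chr6:55037960-55037989, minus strand): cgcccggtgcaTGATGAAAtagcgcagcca
Iars (chr13:49682126-49682155, minus strand): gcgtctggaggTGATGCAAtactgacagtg
Tars (chr15:11399655-11399684, plus strand): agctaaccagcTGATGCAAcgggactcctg
Yars (chr4:129189895-129189924, plus strand): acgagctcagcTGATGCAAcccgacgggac

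The 250 bases before the Tars start (chr15:11399659-11399908, minus strand) hold the NRF1 motif and, on the opposite strand, the composite element, both in capitals.
Tars: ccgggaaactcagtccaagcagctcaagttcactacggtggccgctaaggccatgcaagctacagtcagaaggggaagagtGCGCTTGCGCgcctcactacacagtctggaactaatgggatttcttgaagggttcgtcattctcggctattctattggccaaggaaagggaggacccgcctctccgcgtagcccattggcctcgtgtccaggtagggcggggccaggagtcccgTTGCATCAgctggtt

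Between genotypes in vitro, Gars and Tars were called higher (0.31 each), whereas Iars (0.17), Yars (0.21) and Aars (-0.11) did not pass. In wild-type culture Gars (0.44) and Iars (0.38) were called higher, and Tars (-0.01), Aars (-0.05) and Yars (-0.12) did not pass. These values depend on the length trend. With it removed, Iars (0.40, edgeR adjusted p = 0.00615), Gars and Tars were called between genotypes and Yars (0.25) and Aars (0.17) did not pass. All 5 were above 0 in that fit, but so was every other cytosolic member except Eprs (-0.32). In wild-type culture Aars then turned to 0.26 (edgeR adjusted p = 0.00886), a call, beside 0.05 for Tars and -0.02 for Yars. Mars, Dars and Farsb, called higher in CIS-null cells in vitro, have promoters without the element in this window. The same holds for Yars2, Tars2, Lars2, Nars2 and Rars2, the mitochondrial members called higher. No promoter was at hand for Rars and Nars.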

How the data were processed

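RNA sequencing measured gene expression in 8 libraries. Per the submitters' processing notes, Subread, featureCounts and limma were used with GRCm38/mm10, and no version, strand or overlap setting is given. Raw read counts of 27179 genes (565 without a symbol) and gene lengths are in the deposited matrix. The authors' per-sample files hold log2 RPKM values, used for 1 alternative only. Counts were fitted in R 4.3.3 with edgeR 4.0.16: filterByExpr (minimum count 10, minimum total 15) left 13184 genes, scaled by trimmed means of M values, with 1 mean per group over all 8 libraries (4 residual degrees of freedom). Quasi-likelihood F tests used Benjamini-Hochberg adjustment across the 13184 genes, at 0.05. CPM and RPKM were computed from counts and scaled totals.

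Members and lists were chosen with earlier results of these data known. Genotype comparisons and the interaction name up to 6 called members by lowest p, or the first 3 where under 3 passed. Culture in wild-type cells names the 6 cytosolic and 5 mitochondrial called members with the largest change and any against its list, and the highest and lowest members by RPKM are given. Alternatives were other scalings and filters, DESeq2 1.42.0, limma 3.58.1, a replicate block, length trend removal (spline, 4 degrees of freedom), the compared samples alone and leaving out each library. A result for 1 member that this rule allows, and 1 promoter window, are not reported here. The fit was tested on simulated data. Shared transcript stretches came from BLAST 2.17.0 on GENCODE M21 transcripts. Counting noise alone did not account for replicate differences (chi-square of 5.96 to 34.2 per degree of freedom).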

Additional observations from a re-analysis of the deposited data

How the results depend on the processing

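The calls between genotypes in vitro depend on single libraries. Leaving out each library in turn gave 0 to 9 cytosolic and 0 to 7 mitochondrial calls, and a cytosolic minus mitochondrial median difference of -0.14 to 0.09, beside 500 to 4296 calls over all genes. In wild-type culture it gave 7 to 10 cytosolic and 5 to 11 mitochondrial calls, against 9 and 9 with all libraries. Scaling by library totals left 4 cytosolic calls between genotypes in vitro, beside 3517 genes in all. It left 8 of 13 mitochondrial calls in CIS-null culture, beside 9490 genes. When the compared samples were fitted alone 8 remained there, beside 8527 genes. With library totals 21.2% of all calls between genotypes in vitro were higher, against 42.8% in the fit reported and 52.5% with the length trend removed. Removing the length trend gave 14 cytosolic calls in wild-type culture. The mitochondrial members Vars2, Wars2, Pars2 and Nars2 also gained a call there, while Hars2 lost its call. In the interaction DESeq2 called 1 mitochondrial member and 593 genes in all, against 18 with edgeR, and ex vivo 45 against 8. Limma on log2 RPKM gave median differences of -0.02 for the interaction and 0.10 for wild-type culture. No member turned direction in a comparison in which it was called. Of the 126 uncalled pairs of member and comparison, 51 turned in at least 1 fit, such as Aars and Tars in wild-type culture and Qars between genotypes in vitro. Of 693 values of members named by the rule, 22 lost and 2 gained a call. In libraries sharing a replicate number, deviations correlated at 0.172 between ex vivo groups and at -0.379 between CIS-null groups, otherwise -0.049 to 0.00985. The labels do not say what a number stands for, and whether samples with the same number share more was not established. With a replicate block 6 cytosolic and 6 mitochondrial members were called between genotypes in vitro, beside 2527 of all tested genes. With the block and length trend removed it was 9 and 4, beside 2487. With the replicate block crossed, CIS-null culture had 14 and 12 calls, beside 9709 of all tested genes. The cause of each change was not tested, and 2 libraries a group limit all of these calls. Counts of members that share sequence with another gene are uncertain: Iars shares 1656 bases with a pseudogene, and Hars and Hars2 share 195 bases. A transcript of Iars2 shares 2034 bases with Rab3gap2 and one of Aars 1326 bases with Exosc6. Both of these transcripts are longer than the counted lengths (3540 bases for Iars2, 4891 for Aars), and how far the shared stretches enter the counts was not tested.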
